A study of Mus musculus with 2 samples.

Results

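TRAV11 and TRAJ18 are the V and J segments of the T cell receptor alpha chain (TCRα) that the mouse invariant natural killer T (iNKT) cell joins into a near-fixed receptor. All clonotypes carrying either segment were taken from 2 TCR libraries of T cells derived from gene-edited embryonic stem cells (iT cells). A clonotype is a distinct CDR3 nucleotide sequence with its V and J call and read count. It was a member if its first-listed V gene was TRAV11 or the copies TRAV11D or TRAV11N, or if its first-listed J gene was TRAJ18. These rules found 164 of 7732 clonotypes in thymus and 330 of 11826 in spleen, 494 of 19558 in all. Of the thymus members 61 carried TRAV11, 107 carried TRAJ18 and 4 of these carried both. Of the spleen members 107 carried TRAV11, 234 carried TRAJ18 and 11 carried both.

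The libraries came from 1 thymus sort and 1 spleen sort of 15000 iT cells each. The donor cells were iR9-ESC of C57BL/6 background (CD45.2), with a doxycycline-inducible Runx1-p2a-Hoxa9 cassette at Rosa26. The hosts were irradiated young adult B-NDG mice (NOD-Prkdc scid IL2rg null, CD45.1), which make no T, B or NK cells of their own. The study transplanted its main cohort without doxycycline, but fed doxycycline to the hosts of its gut and lung analysis. For the hosts of these libraries it does not state which applied. Thymus cells were gated as CD4 or CD8 single positive and negative for NK1.1 and TCRγδ, and spleen cells as CD4 or CD8 single positive, CD62L+CD44-. No wild-type library was among the samples, and with 1 library per tissue no difference between thymus and spleen could be tested. The thymus library held 918063 TCRα reads in 6089 TCRα clonotypes and the spleen library 1820314 reads in 9583, so that 3 reads, the limit a count of 0 allows, correspond to 0.000327% and 0.000165% of TCRα reads. Reads carried no molecular identifiers, so every interval given here covers counting error only. Reads of the same clonotype are not independent draws of cells, so limits and intervals by reads are too narrow.

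iNKT cells recognise lipid antigens on CD1d through a receptor whose alpha chain is nearly the same in all of them, while the beta chain uses a few V genes. The alpha chain joins TRAV11 (formerly Vα14) directly to TRAJ18 (formerly Jα18), and a chance join of the right length and residues must be followed by selection on CD1d in the thymus. Both segments are also used by conventional T cells, TRAV11 with other J genes and TRAJ18 with other V genes. Mature iNKT cells often carry NK1.1 and mostly have high CD44. By the gates above, cells with NK1.1 were left out of the thymus sort, which had no CD44 gate, and cells with high CD44 out of the spleen sort, which had no NK1.1 gate, although the study's text calls the cells of both tissues naïve. What part the gates had in the counts below was not tested.

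The germline ends show what each segment can bring to the CDR3. They are from GENCODE for GRCm38, and capitals mark the bases inside the CDR3, from the conserved cysteine of the V gene to the conserved phenylalanine of the J gene.
Trav11: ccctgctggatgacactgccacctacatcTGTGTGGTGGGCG
Traj18: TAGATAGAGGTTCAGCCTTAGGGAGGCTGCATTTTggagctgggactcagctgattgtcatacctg
TRAV11 can bring 13 bases to the CDR3 and TRAJ18 35. The last 33 of the J bases encode the 11-residue tail of the invariant chain, which stays whole when at most 2 bases are removed from the front of the J gene. The annotated genes lie on the plus strand of chromosome 14, Trav11 at chr14:53519303-53519859 and Traj18 at chr14:54200777-54200842, 681 kb apart. Trav11n (chr14:53135122-53135678) and Trav11d (chr14:52824357-52824912) lie 1065 kb and 1376 kb upstream of Traj18, in the duplicated part of the V array.

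The copies of TRAV11 are hard to tell apart, and only some can encode a chain. Trav11d was identical to Trav11 over 342 bases, so their clonotypes were counted together. Trav11n differed at 8 of these bases and is annotated as a pseudogene with an in-frame stop at codon 46 of the annotated sequence, upstream of the CDR3. The stretch is printed because it decides what a clonotype of this copy can encode, with capitals at that codon.
Trav11: cttcaatgtaatTACagtgtgaccccc
Trav11n: cttcaatgtaatTAGagtgtgaccccc
TRAV11N was listed first in 8 of 61 TRAV11 clonotypes in thymus and 27 of 107 in spleen. For these clonotypes the word productive, which here means a CDR3 in frame with no stop, says nothing of the rest of the V gene.

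The canonical pair was present in both tissues at low abundance, and the canonical protein was read in spleen. It has 15 residues, the 4 of the germline V end, the last of them a glycine, and the 11 of the full TRAJ18 tail. TRAV11-TRAJ18 made 4 of 6089 TCRα clonotypes and 257 reads in thymus, 0.0280% of TCRα reads (Wilson 95% interval 0.0248 to 0.0316). In spleen it made 11 of 9583 clonotypes and 2960 reads, 0.163% (0.157 to 0.169). This protein was not found in thymus, which by reads alone allows up to 0.000327% of TCRα reads. By clonotypes, a count of 0 among 6089 allows up to 3, more than the 2 found in spleen. The absence therefore does not show a difference between the tissues. In spleen the protein was encoded by 2 nucleotide sequences of 377 and 160 reads, together 0.0295% of TCRα reads (0.0271 to 0.0321) and 18.1% of the reads of the pair.

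The 9 productive CDR3s of the pair show how the same segments were joined in different ways. Capitals mark the bases aligned to TRAJ18, and the name gives the tissue, the CDR3 length in nucleotides and the reads. The canonical protein is encoded by the spleen sequences of 377 and 160 reads.
Thymus, 48 nucleotides, 87 reads: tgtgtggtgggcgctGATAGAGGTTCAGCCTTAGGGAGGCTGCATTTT
Thymus, 45 nucleotides, 43 reads: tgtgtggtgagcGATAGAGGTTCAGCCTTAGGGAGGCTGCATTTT
Spleen canonical, 45 nucleotides, 377 reads: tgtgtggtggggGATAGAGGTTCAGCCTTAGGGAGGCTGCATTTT
Spleen canonical, 45 nucleotides, 160 reads: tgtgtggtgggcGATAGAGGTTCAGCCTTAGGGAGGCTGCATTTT
Spleen, 45 nucleotides, 387 reads: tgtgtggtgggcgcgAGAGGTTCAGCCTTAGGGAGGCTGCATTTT
Spleen, 42 nucleotides, 436 reads: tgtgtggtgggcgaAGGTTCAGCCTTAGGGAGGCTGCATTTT
Spleen, 42 nucleotides, 300 reads: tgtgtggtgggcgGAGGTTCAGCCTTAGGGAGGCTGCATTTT
Spleen, 42 nucleotides, 272 reads: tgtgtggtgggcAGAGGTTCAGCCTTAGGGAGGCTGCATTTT
Spleen, 39 nucleotides, 134 reads: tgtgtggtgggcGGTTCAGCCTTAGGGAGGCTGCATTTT

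Of the productive pair clonotypes, 1 of 2 in thymus and 3 of 7 in spleen had the canonical length of 45 nucleotides. The full J tail was kept in 2 of 2 in thymus and 2 of 7 in spleen, and the others in spleen had lost between 5 and 8 bases of TRAJ18. The thymus clonotype of 45 nucleotides differed from the spleen canonical sequence of 160 reads by 1 substitution, G10A, counted from the first base of the CDR3, which gave serine in place of glycine. The other productive thymus clonotype, of 48 nucleotides, was listed as TRAV11N, so that in thymus 1 productive pair clonotype of 43 reads remained for the copies that can encode a chain.

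The remaining 2 pair clonotypes in thymus (86 and 41 reads) and 4 in spleen (486, 178, 155 and 75 reads) were out of frame. The most abundant pair clonotype in spleen, with 486 reads, was thus not productive and kept 15 V bases, counting 2 palindromic ones, while 6 bases of TRAJ18 were removed. It ranked 591 among the TCRα clonotypes of spleen, and the leading canonical sequence ranked 939. None of the 15 pair clonotypes was found in the other tissue.

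The pair was more frequent than the use of its segments alone gave, in spleen with and without the pseudogene copy and in thymus only with it. The expected number was the share of TRAV11 times the share of TRAJ18 times the number of TCRα clonotypes in the library. In thymus 4 clonotypes were observed against 1.07 expected, a ratio of 3.73 (exact Poisson 95% interval 1.02 to 9.55), and in spleen 11 against 2.61, a ratio of 4.21 (2.102 to 7.53). Among all V family and J gene pairs with at least 1 expected clonotype, 6.69% of 658 in thymus and 7.4% of 757 in spleen reached 2-fold over expected. A higher ratio than that of TRAV11-TRAJ18 was found for 8 pairs in thymus and 15 in spleen. The median ratio over these pairs was 0.901 and 0.905. Counted over productive clonotypes alone, the TRAV11-TRAJ18 ratio was 4.22 in thymus and 5.49 in spleen. Over out-of-frame clonotypes alone it was 3.18 and 3.33, on 2 and 4 pair clonotypes and without an interval. These are too few to tell whether the excess extended to nonproductive joins. What lay behind the excess was not tested. TRAV11N was listed in 2 of the 4 thymus pair clonotypes and in none of the 11 in spleen. Without it the ratio was 2.19 in thymus (0.265 to 7.89; 2 clonotypes) and 5.62 in spleen (2.80 to 10.05; 11 clonotypes), so that the thymus interval then included 1.

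Counted by clonotype, both segments were moderately used. TRAV11 made 1.002% of TCRα clonotypes in thymus (0.781 to 1.28) and 1.12% in spleen (0.925 to 1.35), rank 16 of 24 and 16 of 25 V families. Its neighbours in rank were TRDV1 with 63 clonotypes and TRAV19 with 56 in thymus, and TRAV19 with 165 and TRDV1 with 94 in spleen. The shares of these neighbours lay inside the counting interval of TRAV11, with the exception of TRAV19 in spleen, which lay above it. By reads TRAV11 made 0.713% in thymus and 1.20% in spleen.

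TRAJ18 made 1.76% of TCRα clonotypes in thymus (1.46 to 2.12) and 2.44% in spleen (2.15 to 2.77), rank 23 of 47 and 20 of 52 J genes. By reads it made 1.56% and 2.92%. The gene directly downstream, TRAJ17, had 134 clonotypes in thymus and 259 in spleen, slightly more than TRAJ18, whereas TRAJ19, directly upstream, was not called in either tissue. The spleen share over the thymus share was 1.39 for TRAJ18 and 1.11 for TRAV11 by clonotypes, and 1.88 and 1.68 by reads. Neither clonotype ratio reached 1.5, a size reached by 2.33% of 43 J genes and 10.5% of 19 V families with at least 10 clonotypes in both tissues.

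**Figure D1:**
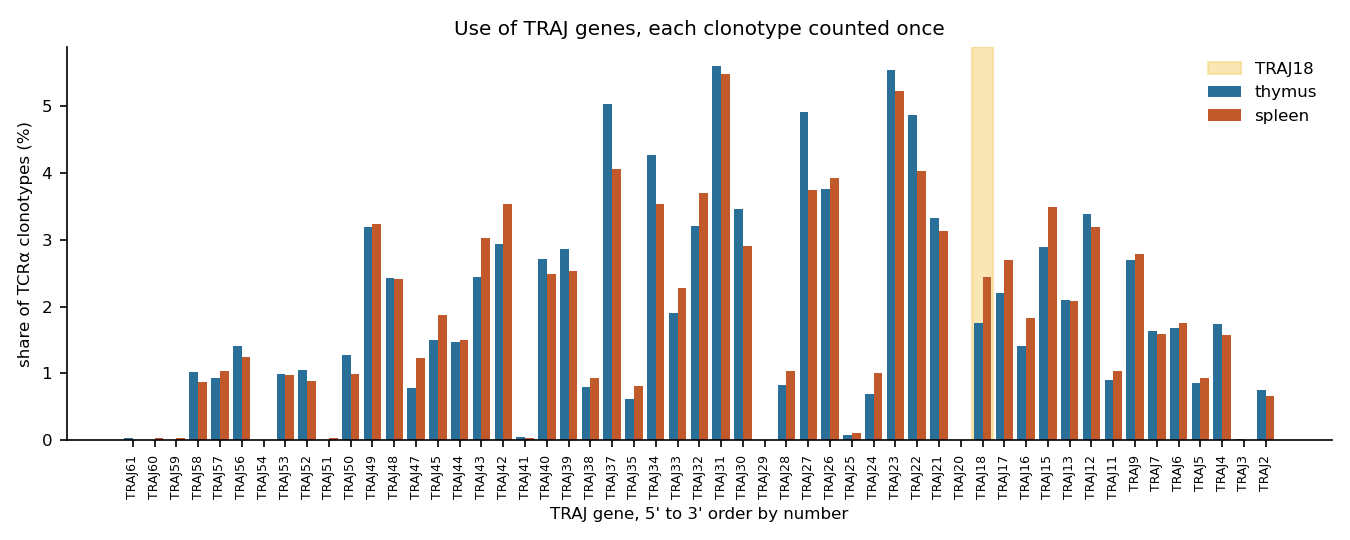
Share of TCRα clonotypes (%) carrying each TRAJ gene in thymus and spleen, in the order of gene number along the locus, with TRAJ18 shaded. TRAJ18 was at 1.76% and 2.44%, close to its downstream neighbour TRAJ17 and well below TRAJ31, the most used J gene.

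TRAV11 was joined to many J genes besides TRAJ18, and its choice among them was uneven. It was found with 23 of the 47 J genes called in thymus and with 25 of 52 in spleen. The pair with TRAJ18 made 6.56% of TRAV11 clonotypes in thymus and 10.3% in spleen, and the other 93.4% and 89.7% carried another J gene. In thymus the leading partners were TRAJ27 and TRAJ34 with 6 clonotypes each (2.995 and 2.60 expected) and TRAJ6 with 5 (1.02 expected), followed by TRAJ18, TRAJ32, TRAJ39, TRAJ42 and TRAJ9 with 4 each. In spleen TRAJ27 led with 19 (4.01 expected), followed by TRAJ32 with 12 (3.95), TRAJ18 with 11 (2.61), TRAJ6 with 9 (1.88) and TRAJ34 with 7 (3.79).

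TRAJ18 was therefore among the leading partners but not the first. Of the J genes with at least 1 expected clonotype, 9 of 26 in thymus and 6 of 38 in spleen reached 2-fold over expected. Over all V family and J gene pairs it was 6.69% and 7.4%, but these include larger families. At their higher expected counts a 2-fold ratio by counting error is less likely. Of the 9 in thymus, only TRAJ18 and TRAJ6 had a Poisson interval above 1. With all copies counted, TRAJ18 and TRAJ6 were the J genes with a Poisson interval above 1 in both tissues; without TRAV11N this held for TRAJ6 (4.54, 1.24 to 11.6, and 5.04, 2.03 to 10.4) but in thymus not for TRAJ18. With all copies the ratio for TRAJ6 was 4.89 in thymus (1.59 to 11.4) and 4.80 in spleen (2.19 to 9.11), about as high as that for TRAJ18. TRAJ27 reached 4.74 in spleen (2.85 to 7.40). The ratio for TRAJ32 in spleen, 3.04 (1.57 to 5.30), was 2.06 (0.756 to 4.48) without TRAV11N.

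The productive counts of these joins varied by partner in spleen. Of the TRAV11 clonotypes, 12 of 19 with TRAJ27, 7 of 9 with TRAJ6 and 7 of 11 with TRAJ18 were productive. With TRAJ32 it was 2 of 12, and with TRAJ34 2 of 7. TRAV11N was listed in 6 of the 12 joins to TRAJ32, none of them productive, and in 4 of the 7 to TRAJ34, including both productive ones. Joined to other V genes, TRAJ32 was productive in 54.4% of spleen clonotypes, TRAJ6 in 65.4%, TRAJ34 in 71.1%, TRAJ18 in 74.4% and TRAJ27 in 77.6%, and TRAJ32 had the lowest share of the ranked J genes over all V genes. These differences were not tested.

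Several common J genes were not seen with TRAV11. No clonotype was found for 9 of the 26 J genes in thymus and for 15 of the 38 in spleen. Over all V family and J gene pairs with at least 1 expected clonotype, 11.4% in thymus and 13.2% in spleen had none. At 1/2 of expected or less stood 11 of the 26 and 20 of the 38, against 22.6% and 26.7% of all such pairs. All such pairs include larger V families with more expected clonotypes per J gene. There a low or zero count by counting error is less likely, so these shares are not like for like. TRAJ23 was absent against 3.38 expected in thymus and 5.59 in spleen, and TRAJ37 against 3.07 and 4.34. The Poisson intervals of their ratios ended at 0.659 and 0.849 in spleen. In thymus they ended at 1.09 and 1.20 and so included 1. TRAJ30, TRAJ49 and TRAJ7 were likewise absent from TRAV11 clonotypes of both tissues, but their intervals included 1 in both. TRAJ31, the most used J gene of both libraries, was found once in each tissue, against 3.42 and 5.86 expected.

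By position in the J array, TRAV11 was rarely joined to its 5' end in spleen. J genes from TRAJ45 upward made 1 of 107 TRAV11 clonotypes there, 0.935% (0.165 to 5.10), against 15.05% of the clonotypes of other V genes. In thymus they made 6 of 61, 9.84% (4.59 to 19.8), against 14.7%, a difference within the counting interval. The 3' part, from TRAJ23 downward, which holds TRAJ18, made 37.7% of the clonotypes of TRAV11 and of other V genes in thymus, and 39.3% against 38.5% in spleen, inside the interval for TRAV11 (30.5 to 48.7).

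**Figure D2:**
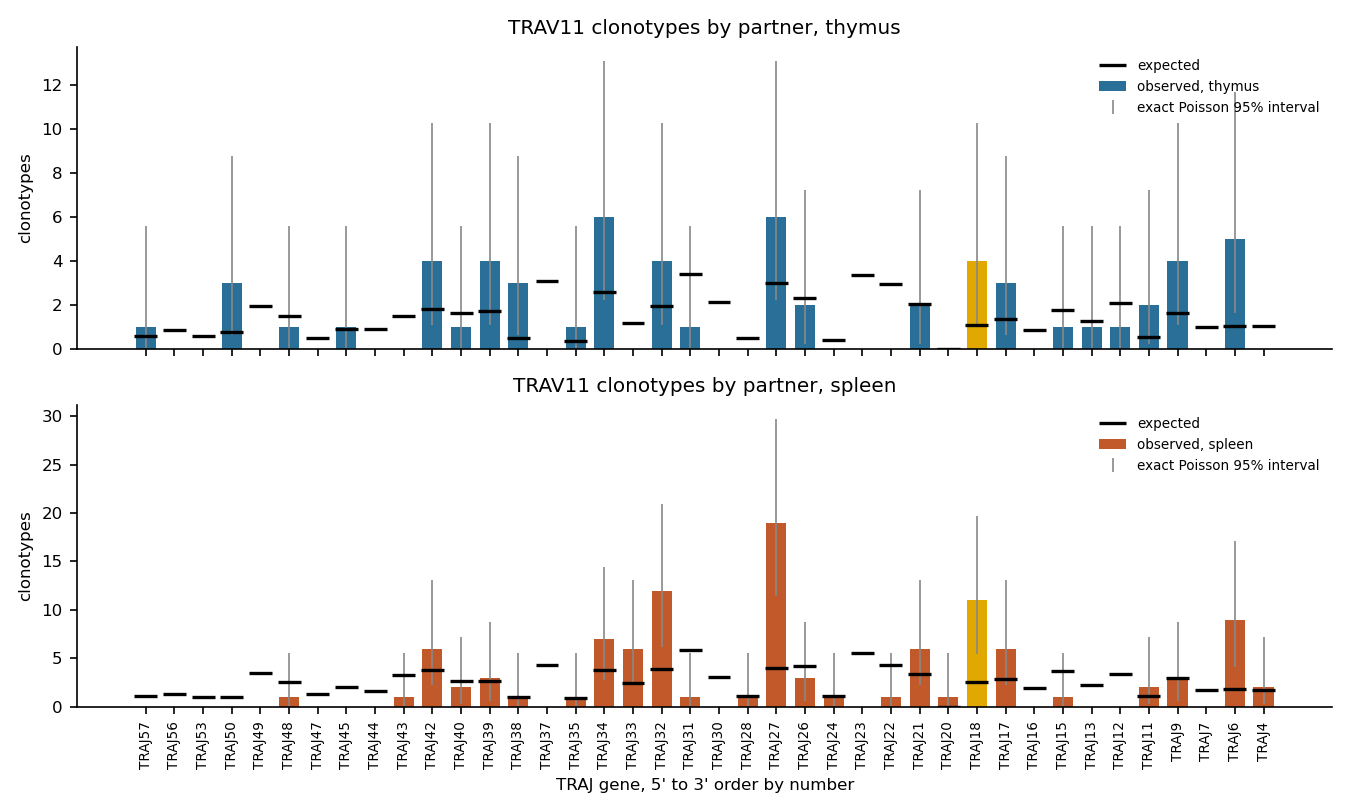
TRAV11 clonotypes with each TRAJ gene in thymus (top) and spleen (bottom), as bars with exact Poisson 95% intervals, with the number expected from the use of both segments as black lines and TRAJ18 in yellow. TRAJ27, TRAJ32, TRAJ18 and TRAJ6 stood above the black lines in spleen, while TRAJ23, TRAJ31 and TRAJ37 stayed below them in both tissues.

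TRAJ18 was joined mostly to the large V families, and TRAV11 was a minor partner. It was found with 15 of 24 V families in thymus and 15 of 25 in spleen, and TRAV11 made 3.74% and 4.70% of its clonotypes. In thymus the leading partners were TRAV7 with 23 clonotypes (15.6 expected), TRAV6 with 16 (17.8), TRAV12 with 14 (11.3), TRAV9 with 9 (4.31) and TRAV13 with 8 (7.59). In spleen they were TRAV12 with 42 (28.7 expected), TRAV7 with 40 (28.7), TRAV3 with 32 (17.6), TRAV13 with 22 (19.5) and TRAV6 with 17 (36.8).

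Against the expected number, and with all copies counted, TRAV11 was the highest of the partners of TRAJ18 that had at least 1 expected clonotype in both tissues. In spleen it was the only one of 18 families at 2-fold or more, and in thymus it shared that with TRAV9 (ratio 2.09, 0.956 to 3.97) among 16. Without TRAV11N, the thymus pair had 2 clonotypes against 0.915 expected (2.19, 0.265 to 7.89), which is below that minimum. TRAV3 (1.82, 1.25 to 2.57) and TRAV12 (1.46, 1.05 to 1.98) were above expected in spleen by smaller factors. TRAV6 was below it in spleen, with a ratio of 0.461 (0.269 to 0.739), while in thymus its ratio was 0.901 (0.515 to 1.46).

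No TRAJ18 clonotype used a V gene from the end of the array nearest to the J genes. TRAV17 to TRAV21 and the TRDV genes made 0 of 107 TRAJ18 clonotypes in thymus, which allows up to 2.80%, and 0 of 234 in spleen, which allows up to 1.28%. Clonotypes of other J genes used them in 4.41% and 6.06%. The 3' J genes as a group, from TRAJ23 downward, had 0.566% and 0.570%, and TRAJ17 and TRAJ16 had none either. TRAJ15 had 0 of 176 in thymus and 3 of 334, 0.898% (0.306 to 2.61), in spleen. TRAV21 had no TRAJ18 clonotype in spleen against 4.93 expected, and TRAV19 none against 4.03.

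**Figure D3:**
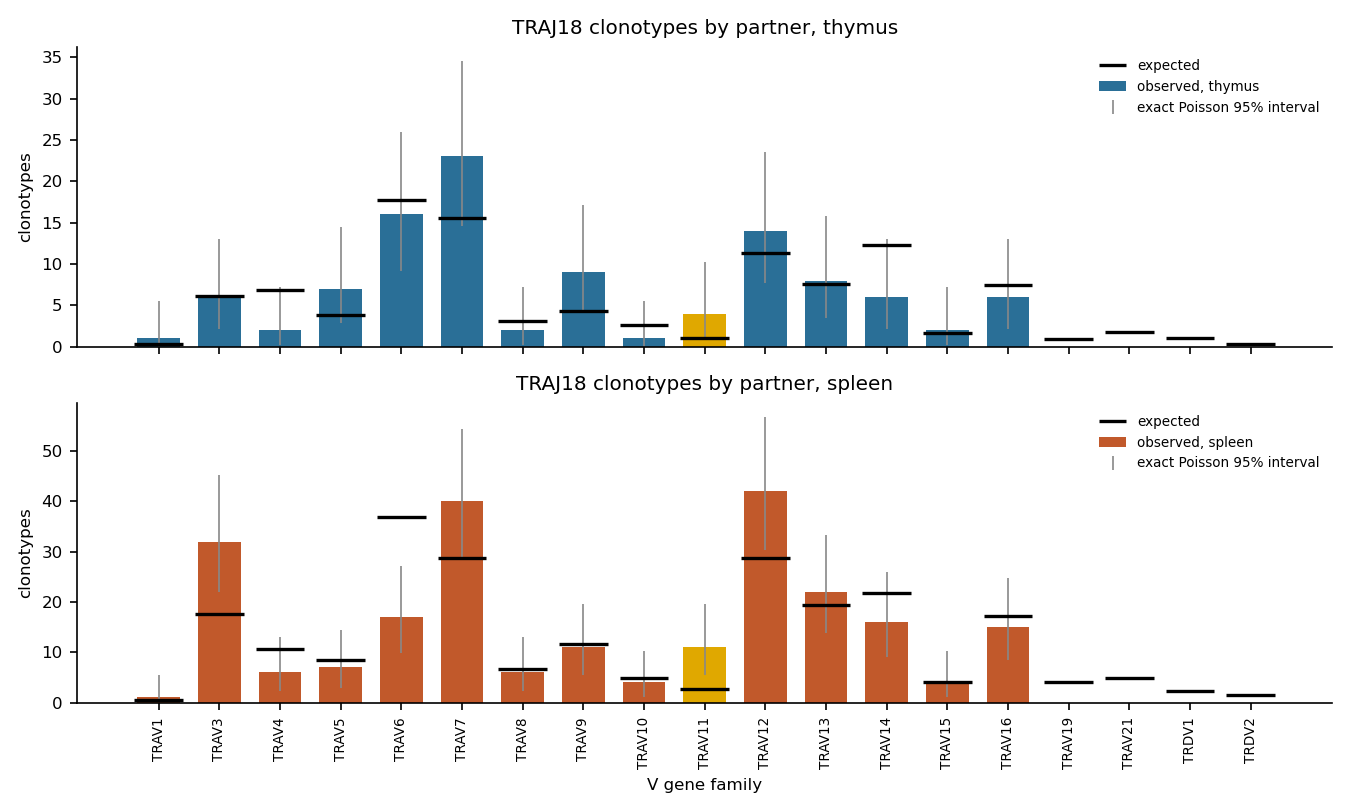
TRAJ18 clonotypes with each V gene family in thymus (top) and spleen (bottom), as bars with exact Poisson 95% intervals, with the expected number as black lines and TRAV11 in yellow. TRAV11 stood above its line in both tissues at 4 and 11 clonotypes, TRAV6 stood below its line in spleen, and TRAV19, TRAV21, TRDV1 and TRDV2 had no TRAJ18 clonotype.

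Fewer TRAV11 clonotypes were productive than clonotypes of other V genes, in both libraries. In thymus 28 of 61 were productive, 45.9% (34.0 to 58.3), against 74.9% of the other TCRα clonotypes. The difference was -29.0 percentage points (-41.0 to -16.6; Fisher's exact test, two-sided, p = 1.75e-06, adjusted p = 3.49e-06 over 4 tests). In spleen 49 of 107 were productive, 45.8% (36.7 to 55.2), against 69.7%, a difference of -23.9 points (-33.1 to -14.4; Fisher's exact test, p = 4.03e-07, adjusted p = 1.61e-06). These tests compare clonotypes within 1 library and treat them as independent, so they say nothing of the spread between mice.

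All nonproductive TRAV11 clonotypes, 33 in thymus and 58 in spleen, were out of frame. None was in frame with a stop codon, which was rare in other TCRα clonotypes too (0.382% in thymus and 0.348% in spleen). Part of the low productive share lay in the pseudogene copy. Clonotypes listed as TRAV11N were productive in 2 of 8 in thymus and 6 of 27 in spleen. Without them the productive share was 49.1% in thymus and 53.8% in spleen, still below that of other V genes (Fisher's exact test, adjusted p = 0.000330 and 0.00632). TRAV11D, the identical copy, was productive in 3 of 6 and 12 of 22.

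Among the V families with at least 50 clonotypes, TRAV11 had the second lowest productive share of 17 in thymus and of 18 in spleen. TRAV19 was lower with 41.1% and 45.5%, and the median family was at 74.9% and 70.5%. By reads, 60.7% of TRAV11 reads in thymus and 57.0% in spleen were productive, against 84.9% and 86.0% for the others. The productive TRAV11 clonotypes had a median of 88.5 reads in thymus and 212 in spleen, and the nonproductive ones 70 and 118.5.

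For TRAJ18 the productive share did not pass the test in either library. In thymus 77 of 107 were productive, 72.0%, against 74.7% of the others (difference -2.73 points, -12.0 to 4.99; Fisher's exact test, p = 0.503, adjusted p = 0.503). In spleen 173 of 234 were productive, 73.9%, against 69.3% (4.64 points, -1.41 to 9.93; Fisher's exact test, p = 0.132, adjusted p = 0.176). In each tissue 1 TRAJ18 clonotype was in frame with a stop codon.

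**Figure D4:**
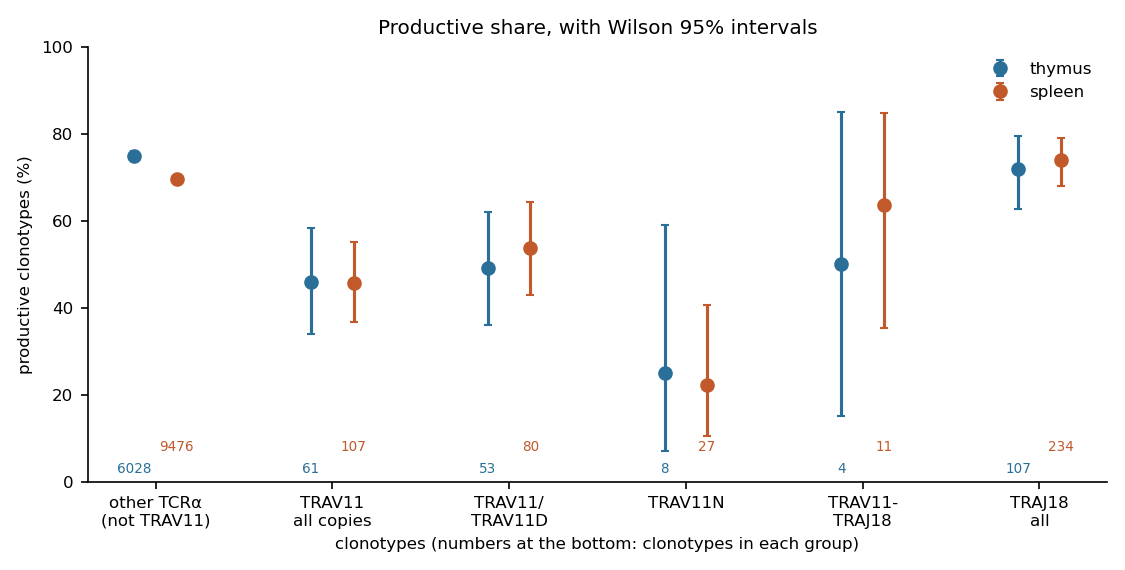
Productive clonotypes (%) with Wilson 95% intervals among clonotypes of other V genes, TRAV11 with all its copies, TRAV11 and TRAV11D, TRAV11N, the TRAV11-TRAJ18 pair and TRAJ18, with the number of clonotypes at the bottom. TRAV11 lay at 45.9% and 45.8% against 74.9% and 69.7% for other V genes, while TRAJ18 lay near the others.

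Productive TRAV11 joins in spleen often had no base between the V and J alignments. Palindromic bases beyond the V end were counted with the V alignment. They were present in 32.7% of productive TRAV11 clonotypes in spleen and 25.8% of the others. Of the productive TRAV11 clonotypes there, 31 of 49, 63.3%, had no base between the V and J alignments, against 40.8% of other productive clonotypes (22.5 points, 8.46 to 34.6; Fisher's exact test, p = 0.00193, adjusted p = 0.00772 over 4 tests). Over all spleen clonotypes, in and out of frame, the shares were 53.3% and 44.4% and the call was lost (Fisher's exact test, adjusted p = 0.312). In thymus it was 11 of 28, 39.3%, against 31.7% (7.56 points, -8.22 to 25.9; Fisher's exact test, adjusted p = 0.538). The V end was untrimmed in 64.3% of productive TRAV11 clonotypes in thymus and 53.1% in spleen, against 38.3% and 39.7% of the others.

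For TRAJ18 the share with no base between the V and J alignments did not pass the test. It was 27 of 77, 35.1%, in thymus against 31.7% (Fisher's exact test, adjusted p = 0.538) and 82 of 173, 47.4%, in spleen against 40.8% (6.65 points, -0.756 to 14.2; Fisher's exact test, adjusted p = 0.170). A median of 5 bases in thymus and 4 in spleen were removed from the front of TRAJ18, against 2 from other J genes in each tissue.

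The canonical 45 nucleotides were a common length for TRAJ18 in both tissues, and for TRAV11 in thymus. Productive TRAJ18 clonotypes had a mean CDR3 length of 43.6 nucleotides ± 4.12 (SD over 77 clonotypes) in thymus and 44.4 ± 3.72 (173 clonotypes) in spleen. Clonotypes with neither segment had 40.6 ± 4.84 and 40.5 ± 4.82. A length of 45 nucleotides was found in 27.3% (18.6 to 38.1) of productive TRAJ18 clonotypes in thymus and 35.3% (28.5 to 42.6) in spleen, against 13.5% and 13.98% of those with neither segment. Since the germline length of a J gene enters its CDR3, and the J gene was what chose the members, these lengths are given without a test.

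Productive TRAV11 clonotypes had a mean of 42.5 nucleotides ± 3.56 (28 clonotypes) in thymus and 40.3 ± 2.94 (49 clonotypes) in spleen. They were at 45 nucleotides in 35.7% (20.7 to 54.2) in thymus and 14.3% (7.10 to 26.7) in spleen. With J genes other than TRAJ18 the shares were 9 of 26, 34.6%, and 4 of 42, 9.52%. The 45-nucleotide TRAV11 clonotypes of thymus were thus nearly all joined to J genes that do not make the canonical chain.

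**Figure D5:**
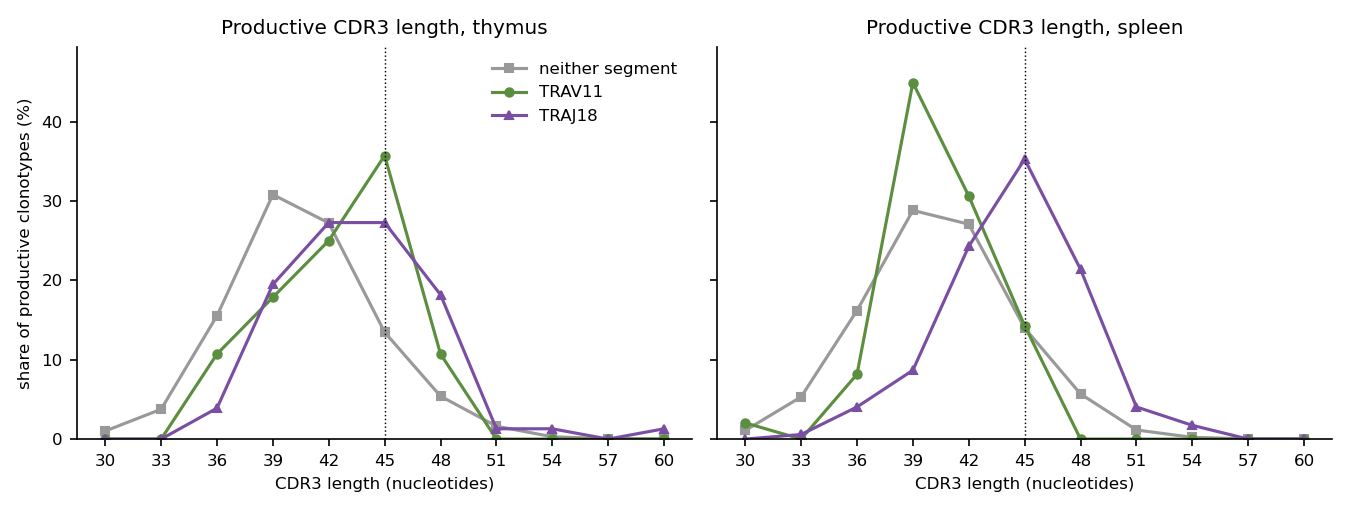
CDR3 length in nucleotides of productive clonotypes (% of each group) with TRAV11, with TRAJ18 and with neither segment in thymus and spleen, shown from 30 to 60 nucleotides, with a dotted line at the canonical 45. At that length stood 27.3% and 35.3% of TRAJ18 clonotypes, 35.7% and 14.3% of TRAV11 clonotypes, and 13.5% and 13.98% of the rest.

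The complete TRAJ18 tail of the invariant chain was also found on V genes other than TRAV11, which made up most TRAJ18 clonotypes. Of the productive TRAJ18 clonotypes, 14 of 77, 18.2% (11.2 to 28.2), carried it in thymus and 47 of 173, 27.2% (21.1 to 34.2), in spleen, where they held 42.9% of the productive TRAJ18 reads. With V genes other than TRAV11 it was 12 of 75 and 45 of 166. At the canonical length the tail stood in 4 clonotypes in thymus and 22 in spleen, 1 and 2 of which used TRAV11.

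The most abundant TRAJ18 clonotypes carried the tail or part of it. They are printed beside the canonical pair for comparison, with capitals for the bases aligned to TRAJ18. These alignments can overlap that of the V gene and can hold a mismatch.
Spleen TRAV6D-6, 6780 reads: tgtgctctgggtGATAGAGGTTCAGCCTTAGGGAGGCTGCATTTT
Spleen TRAV7-2, 2550 reads: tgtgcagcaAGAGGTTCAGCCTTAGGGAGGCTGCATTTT
Spleen TRAV3N-3, 2286 reads: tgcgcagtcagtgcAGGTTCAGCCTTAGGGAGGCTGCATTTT
Thymus TRAV7-4, 1004 reads: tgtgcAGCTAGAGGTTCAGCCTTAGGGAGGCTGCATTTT
Thymus TRAV7N-4, 788 reads: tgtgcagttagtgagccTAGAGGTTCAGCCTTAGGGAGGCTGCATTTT
Thymus TRAV12D-3, 589 reads: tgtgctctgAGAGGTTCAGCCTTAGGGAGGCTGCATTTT
The TRAV6D-6 clonotype held 12.8% of all TRAJ18 reads in spleen and ranked 7 among the TCRα clonotypes there. It had the canonical length and the full tail, and its protein was encoded by 3 nucleotide sequences with 8727 reads in all. The canonical TRAV11 protein, with the same 11 J residues, had 537 reads. The other leading TRAJ18 clonotypes had 39 to 48 nucleotides and an incomplete tail. In the TRAV7-4 clonotype the V and J alignments overlapped by 6 bases. Only 1 base of TRAJ18 counted as removed there, but a mismatch to the germline left the tail incomplete.

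The most abundant TRAV11 clonotypes did not use TRAJ18. In thymus they joined TRAJ34 (709 reads, 10.8% of TRAV11 reads), TRAJ42 (332 reads) and TRAJ6 (271 reads), and all 3 were productive. In spleen the leading clonotype, joining TRAV11N to TRAJ34 with 937 reads, was out of frame. It was followed by a productive join to TRAJ6 (722 reads) and an out-of-frame join to TRAJ21 (645 reads). The leading TRAV11 clonotype made 0.0772% of TCRα reads in thymus and 0.0515% in spleen.

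Some TRAJ18 proteins were reached by several nucleotide sequences. In thymus 7 of 64 productive TRAJ18 proteins, 10.9%, had more than 1 sequence, against 9.55% of 3969 proteins with neither segment. In spleen it was 30 of 132, 22.7%, against 13.2% of 5446, and the difference was not tested. For TRAV11 it was 0 of 28 and 4 of 45. Likely errors were not merged for these counts, so a sequence close to a more abundant one could be a read error. In thymus a TRAJ18 sequence of 82 reads differed at a single base, inside TRAJ18, from another of 1004 reads. The protein with the most sequences in spleen was encoded by 6, all with TRAV12 genes, with 2296 reads in all. It carried the full tail, and 1 of its sequences was also found in thymus.

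Identical CDR3s in thymus and spleen were found for both segments, 11 with TRAJ18 and 1 with TRAV11. Of the TRAJ18 sequences 10 had the same V family in both tissues, and 1 was listed with TRAV14-3 in thymus (93 reads) and TRAV7-2 in spleen (2550 reads). By nucleotide sequence alone, the shared TRAJ18 CDR3s made 10.3% of those in thymus and 4.70% of those in spleen (9.35% and 4.27% with the same V family), and the shared TRAV11 CDR3 1.64% (0.290 to 8.72) and 0.935% (0.165 to 5.10). Clonotypes with neither segment were shared in 11.6% of thymus and 7.44% of spleen. By protein, 41.6% of the productive TRAJ18 clonotypes in thymus and 23.1% in spleen had a match in the other tissue, against 28.0% and 21.9% of those with neither segment, and 10.7% and 6.12% of those with TRAV11.

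The shared TRAJ18 sequences included the full tail behind V genes of the TRAV12 and TRAV16 families. These are shown beside the shared TRAV11 join to TRAJ6, with capitals for the bases aligned to the J gene.
TRAV12-TRAJ18, 128 reads in thymus and 627 in spleen: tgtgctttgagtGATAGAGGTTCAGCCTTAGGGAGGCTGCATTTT
TRAV12-TRAJ18, 157 and 61 reads: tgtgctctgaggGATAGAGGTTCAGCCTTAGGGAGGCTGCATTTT
TRAV16-TRAJ18, 74 and 2230 reads: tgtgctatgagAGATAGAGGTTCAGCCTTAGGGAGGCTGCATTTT
TRAV11-TRAJ6, 1 and 158 reads: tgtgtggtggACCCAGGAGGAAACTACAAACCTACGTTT
The joins printed with TRAV12 and TRAV16 had no base between the V and J alignments. The TRAV11 join rested on a single thymus read, as did 3 of the 11 shared TRAJ18 CDR3s, and reads carried over between libraries cannot be told apart from shared cells at that depth.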

How the data were processed

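The authors amplified TCR transcripts with the SMARTer Mouse TCRαβ Profiling Kit, sequenced them as paired reads on a MiSeq and assembled clonotypes with MiXCR; a reference build for the TCR libraries is not given in the sources used here. The deposited tables hold a read count per clonotype, the fraction of the library's reads it makes, a lowest base quality score of the CDR3, V and J hits and alignment points. Counts were used as deposited; the fraction and the score were only checked. Groups were the tissue labels (1 thymus, 1 spleen). TCRα clonotypes were those with a TRAJ gene, V copies were merged into families, and the first-listed hits were used. Removed and added bases were read from the alignment points. Shares carry Wilson and pair counts exact Poisson 95% intervals. Productive and insertion shares were compared within a library by two-sided Fisher's exact tests, Benjamini-Hochberg adjusted over 4 tests each, with scipy 1.17.1. Scripts were tested on simulated data. Named genes were both segments, their 5 leading partners per library and their neighbours in the locus or in rank; named clonotypes were all of the pair, the 3 most abundant of each segment and those of both libraries. J genes lacking among TRAV11 clonotypes, TRAV21 and the convergent proteins were named after their values were seen. The members and lists were chosen with earlier results of these data known. Germline sequences are from GENCODE for GRCm38. The lowest CDR3 quality of a member was 26 in thymus and 33 in spleen. The alternatives were read minimums, frames, read weighting, equal depth, other V and J assignments, merging of likely errors and leaving out clonotypes; leaving out TRAV11N was added after seeing the data.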

Additional observations from a re-analysis of the deposited data

Results flagged for a closer look

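The productive share of TRAJ18 clonotypes minus that of other TCRα clonotypes was -2.73 percentage points in thymus and 4.64 in spleen, so the sign differed between the tissues. Neither difference passed its own test, and the difference between tissues was not tested.

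The mean CDR3 length of productive TRAV11 clonotypes minus that of other productive TCRα clonotypes was 1.91 nucleotides in thymus and -0.242 in spleen. The means were 42.5 against 40.6 and 40.3 against 40.6 nucleotides. The difference between tissues was not tested.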

How the results depend on the processing

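Over 18 results and 110 alternatives, 94 values were counted as unchanged, by rules that differed between results. Shares, read-weighted productive shares and pair ratios had to stay inside the counting interval of the main value. Differences compared by Fisher's exact test had to keep their sign and their call, whatever their size. Mean CDR3 lengths had to move by less than their SD over clonotypes, a wide limit. No paired analysis was possible because the labels give 1 library per tissue and no replicate numbers; for the same reason no library could be left out. The TRAV11 share moved to 0.616% in thymus and 0.737% in spleen over productive clonotypes, to 2.17% and 2.001% over out-of-frame ones, to 0.713% by reads in thymus and to 0.837% in spleen without TRAV11N. The TRAJ18 share in spleen moved to 2.07% over out-of-frame clonotypes and 2.92% by reads. Every clonotype listed first as TRAV11, 47 in thymus and 58 in spleen, was tied with TRAV11D at the top score. A split by the first-listed label therefore does not separate TRAV11 from TRAV11D. With that split, the pair ratio in thymus was 2.42 for TRAV11, 0 for TRAV11D and 14.2 for TRAV11N, and in spleen 4.94, 7.45 and 0. Without TRAV11N it was 2.19 and 5.62. Both were counted as unchanged, although the thymus interval (0.265 to 7.89) then included 1. Weighted by reads, the productive share differed by -24.2 and -29.0 points for TRAV11 and by -3.53 and 3.15 for TRAJ18, in thymus and spleen. The share with no base between the V and J alignments in spleen TRAV11 clonotypes fell to a difference of 8.86 points over all clonotypes (Fisher's exact test, adjusted p = 0.312). The causes were not tested. Small clonotype numbers, 4 and 11 for the pair, and 1 library per tissue limit every comparison.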

Other observations

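The other invariant alpha chain of mice, TRAV1 joined to TRAJ33 in mucosal-associated invariant T cells, was not found in either library. Its segments were used by 17 and 116 clonotypes in thymus and by 19 and 218 in spleen, so 0.324 and 0.432 pair clonotypes were expected and absence was within counting error. Among TCRβ clonotypes, the V genes that iNKT receptors use most were present: TRBV13-2 in 9.63% of 1640 in thymus and 10.7% of 2241 in spleen, TRBV29 in 2.20% and 3.03%, and TRBV1 in 4.39% and 5.49%. By reads, TRBV13-2 made 3.11% of TCRβ in thymus and 1.65% in spleen, TRBV29 2.18% and 0.665%, and TRBV1 1.08% and 0.958%. They were not compared with other TRBV genes. The alpha and beta chains were read separately, so none of these V genes could be assigned to a TRAV11-TRAJ18 chain.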
